A study of Mus musculus with 80 samples.

Results

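The last 3 hours of an enforced 12 h vigil were examined in the mouse heart, as the difference between animals kept awake for 12 h (SD 12 h, n = 8) and animals kept awake for 9 h (SD 9 h, n = 9). These were 17 of the 80 heart arrays of the study, chosen by the label that gives the hours of deprivation, and the difference was described across 35556 probe sets, of which 21218 carry a single gene symbol. All animals were male C57BL/6J mice (the labels give C57BL\6), about 10 weeks old, housed in a 12 h light and 12 h dark cycle and fed only at night for some time before the study. None carried a transgene or received a drug. Deprivation began at lights on and was enforced by gentle handling, so that SD 9 h animals were sampled late in the light phase and SD 12 h animals at its end. The comparison groups, which slept undisturbed, were sampled at the same clock times (SS 12 h and SS 9 h, n = 9 each). Further groups were sampled after 3 and 6 h of either state, and 10 baseline animals at lights on (CTL 0 h). One array was made from the heart of each animal. Sleep was not recorded by EEG, and in the study's own account deprived animals may have slept briefly. Hours awake and time of day move together between SD 9 h and SD 12 h and cannot be told apart within deprived animals. The sleeping animals of the same hours share the change in time of day. They also differ in hours of undisturbed sleep, so their change is not that of time of day alone.

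As background, the heart holds its own circadian clock. CLOCK and BMAL1 (the product of Arntl) bind E-box sequences and drive the Per and Cry genes, whose products close the loop by repressing them, while ROR and REV-ERB proteins set the rhythm of Arntl itself. In nocturnal mice the end of the light phase is when corticosterone climbs and when sleep pressure, if sleep has been denied, is high. Glucocorticoid hormone acts through a nuclear receptor on target genes such as Fkbp5 and Klf15, and immediate early genes such as Fos are switched on within minutes by calcium, growth factors or stress.

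The values were log2 intensities normalised by RMA. The medians of the 17 arrays ran between 5.23 and 5.36 and the pairwise correlations between 0.985 and 0.995. Markers of ventricular cardiomyocytes averaged 12.74 to 12.85 in SD 12 h animals and 12.72 to 12.84 in SD 9 h animals. The array titles carry running numbers, which fall into separate runs. Both groups lie in the same 2 runs, with 5 SD 12 h and 5 SD 9 h arrays in run 1 and 3 SD 12 h and 4 SD 9 h arrays in run 2. What the runs stand for is not given in the sources used here.

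Between 9 and 12 h awake, 71 probe sets passed a false discovery rate of 1% in limma, or 0.2% of those tested. Of these, 42 were higher (0.118%) and 29 lower (0.0816%) in SD 12 h animals. When each array was centred on its median, the split became 28 higher and 36 lower. A single gene symbol was given for 64 of them (0.34% of 18820 named genes), 40 higher (0.213%) and 24 lower (0.128%). The sizes of the 71 log2 differences ran from 0.15 to 1.44 around a median of 0.38, and 13 exceeded 1.5-fold. In 33 of the 71 (23 higher, 10 lower) no SD 12 h animal overlapped an SD 9 h animal. That held for 0.191% of all probe sets, 0.143% higher and 0.0478% lower. All 71 differed in the same direction within run 1 and within run 2, with median sizes of 0.38 and 0.39. They were chosen on the arrays of both runs together, so this agreement was largely built in and is no replication. Of 63 named genes called, 5 stayed past 1% within run 1 alone and 0 within run 2 alone. At a rate of 5%, 188 probe sets passed.

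**Figure D1:**
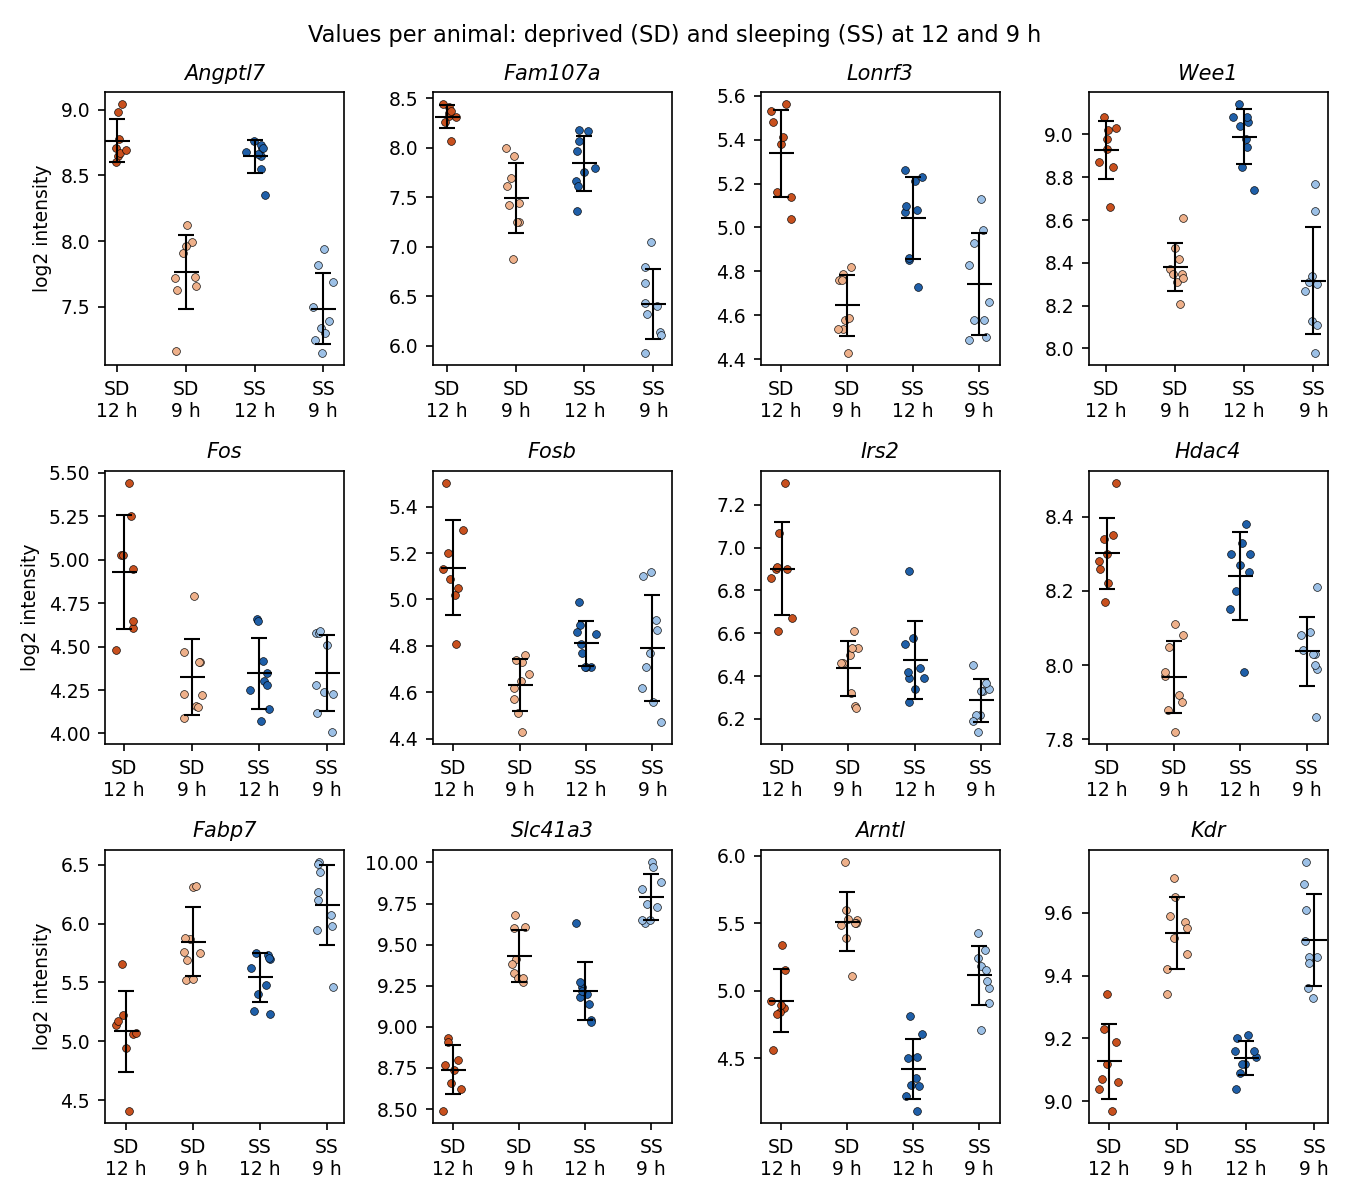
Log2 intensity of 12 genes in each animal, with deprived animals (SD, orange) left and sleeping animals (SS, blue) right, 12 h before 9 h in each. Lines give the mean and standard deviation (n = 8 SD 12 h, 9 in each other group). All SD 12 h animals lie above all SD 9 h animals for Angptl7, Fam107a, Lonrf3, Wee1, Fosb and Hdac4, and all lie below for Slc41a3, while Fos and Arntl overlap.

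Among clock genes and their outputs Wee1, Klf15 and Cipc were higher and Arntl was lower in SD 12 h animals. Wee1, a kinase that restrains entry into mitosis and a clock output with E-boxes in the mouse, had log2 intensities of 8.66, 8.96 and 9.08 (lowest, median, highest) in SD 12 h animals, against 8.21, 8.35 and 8.61 in SD 9 h animals. No animal overlapped. The difference was 0.55 ± 0.0825 (SE; adjusted p = 2.07e-05). Klf15, a transcription factor of cardiac metabolism and repolarisation, had 8.76, 8.98 and 9.06 in SD 12 h animals and 8.27, 8.58 and 8.81 in SD 9 h animals, with a small overlap (0.37 ± 0.0768, adjusted p = 0.00571). Arntl had 4.56, 4.88 and 5.34 in SD 12 h animals, against 5.11, 5.50 and 5.95 in SD 9 h animals. The groups overlapped at their edges, and the difference was -0.59 ± 0.107 (adjusted p = 8.03e-04). Over the whole light phase the mean of Arntl was 8.32 at baseline, then 8.06, 7.29, 5.51 and 4.92 after 3, 6, 9 and 12 h of deprivation, so that the last interval held a small portion of a long decline. Cipc, which encodes an inhibitor of CLOCK, differed by a smaller amount (0.27 ± 0.0512, adjusted p = 0.0016).

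The other listed clock genes did not pass 1%. Among the clock activators and ROR-element genes 1 of 6 was called (Arntl), among the E-box clock repressors 0 of 11 (5 at an unadjusted p under 0.05), and among PAR bZIP factors and other outputs 2 of 8 (Wee1 and Klf15). Of all named genes 0.34% were called, and 3849 of all 35556 probe sets had an unadjusted p under 0.05 in limma. Per2, a repressor of CLOCK and BMAL1, differed by 0.44 ± 0.11 (adjusted p = 0.0367), its partner Cry1 by 0.36 ± 0.0891 (adjusted p = 0.0361) and Clock by -0.24 ± 0.0542 (adjusted p = 0.0145). These passed 5% only. All 8 output genes lay above 0, with a median of 0.18, while the median of all named genes was 0.0109 and 55.3% of them lay above 0. In sleeping animals the same 8 output genes had a median of 0.231, and Wee1, Klf15 and Arntl differed by 0.67, 0.41 and -0.69, all past 1%. The difference between the deprived and the sleeping change did not pass for any of these 3 (adjusted p = 0.801, 0.947 and 0.893). The cold-inducible RNA-binding genes, which follow body temperature, gave no call in 3, and 0 at an unadjusted p under 0.05 (Rbm3 -0.11 ± 0.0632, Cirbp 0.07 ± 0.109, Srsf5 -0.12 ± 0.0989).

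The promoters of the called genes were read for the E-box CACGTG, which has the same letters on both strands, in the 300 bases from 250 before to 50 after each annotated start (RefSeq, GRCm38.p6). Of the 40 genes called higher, 29 were in the promoter table, and 9 of these (31.0%) held the E-box. Of the 24 called lower, 18 were in the table and 1 (5.56%, Slc41a3) held it. The motif stood in the promoters of 8.09% of the 27025 genes in the table, in 11.5% of 9830 genes at or above the 40th percentile of intensity in these hearts, and in 7 of 24 genes of the clock lists (29.2%). Among genes called between SS 12 h and SS 9 h animals it was found in 13.6% of those higher and 15.3% of those lower. The 9 genes were Klf15, Pnpla7, Irs2, Fam214a, Rhobtb1, Cipc, Bmp6, Fkbp5 and Lonrf3. These counts are descriptions of letters, and binding was not measured here. Sequences are shown for 5 of the 9, with each CACGTG in capitals, because they include the promoter with 3 copies (Klf15), the one with 2 (Pnpla7) and genes described below. The stretches are Klf15 chr6:90462326-90462625 (+), Pnpla7 chr2:24975783-24976082 (+), Irs2 chr8:11008880-11009179 (-), Cipc chr12:86947093-86947392 (+) and Lonrf3 chrX:36328159-36328458 (+), each printed 5′ to 3′ on the strand of the gene.
Klf15: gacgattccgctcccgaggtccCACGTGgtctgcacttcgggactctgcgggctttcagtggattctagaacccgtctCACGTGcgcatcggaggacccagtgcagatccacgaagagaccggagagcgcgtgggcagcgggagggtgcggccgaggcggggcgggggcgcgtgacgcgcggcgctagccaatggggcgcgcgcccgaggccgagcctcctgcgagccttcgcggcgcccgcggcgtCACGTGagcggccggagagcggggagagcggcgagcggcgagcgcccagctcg
Pnpla7: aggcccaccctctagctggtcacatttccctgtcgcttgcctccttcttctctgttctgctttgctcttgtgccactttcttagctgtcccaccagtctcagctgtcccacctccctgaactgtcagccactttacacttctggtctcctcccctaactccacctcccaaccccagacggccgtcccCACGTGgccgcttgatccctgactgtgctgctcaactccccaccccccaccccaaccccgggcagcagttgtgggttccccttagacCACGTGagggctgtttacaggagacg
Irs2: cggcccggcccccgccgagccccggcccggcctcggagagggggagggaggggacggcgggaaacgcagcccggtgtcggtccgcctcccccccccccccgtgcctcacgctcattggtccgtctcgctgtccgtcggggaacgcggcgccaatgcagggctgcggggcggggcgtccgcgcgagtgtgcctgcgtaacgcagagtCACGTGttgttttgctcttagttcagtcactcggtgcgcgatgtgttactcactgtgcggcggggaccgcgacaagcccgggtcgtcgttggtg
Cipc: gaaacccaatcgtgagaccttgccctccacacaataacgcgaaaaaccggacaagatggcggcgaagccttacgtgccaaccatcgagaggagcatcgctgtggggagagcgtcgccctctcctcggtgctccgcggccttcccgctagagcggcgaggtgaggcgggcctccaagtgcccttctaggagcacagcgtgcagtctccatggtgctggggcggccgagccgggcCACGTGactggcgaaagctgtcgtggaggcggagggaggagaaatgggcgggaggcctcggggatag
Lonrf3: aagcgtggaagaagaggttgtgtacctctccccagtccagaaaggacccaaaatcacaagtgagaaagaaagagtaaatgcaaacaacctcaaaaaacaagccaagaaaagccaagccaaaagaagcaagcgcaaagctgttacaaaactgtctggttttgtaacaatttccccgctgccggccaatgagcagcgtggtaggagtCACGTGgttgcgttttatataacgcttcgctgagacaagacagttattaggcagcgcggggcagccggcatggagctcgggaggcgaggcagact

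Arntl is shown for the other arm of the loop. Its second annotated start, chr7:113207261-113207560 (+), held the core of the ROR element, AGGTCA (or TGACCT on the other strand), in capitals here. That hexamer was present in the promoters of 18.1% of all 27025 genes and of 15.1% of 9830 genes at or above the 40th percentile of intensity. It stood in 3 of the 29 genes called higher (10.3%) and in 5 of the 18 called lower (27.8%). Among genes called between SS 12 h and SS 9 h animals it was found in 13.6% of those higher and 24.2% of those lower.
Arntl: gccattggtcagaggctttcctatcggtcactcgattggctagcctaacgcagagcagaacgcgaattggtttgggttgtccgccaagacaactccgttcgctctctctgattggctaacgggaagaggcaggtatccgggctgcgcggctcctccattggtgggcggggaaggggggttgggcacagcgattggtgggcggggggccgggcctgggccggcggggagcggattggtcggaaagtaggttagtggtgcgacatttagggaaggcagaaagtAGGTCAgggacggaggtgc

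Among the 24 listed glucocorticoid receptor targets 2 were called higher after 12 h awake, beside 0.213% of all named genes. Klf15, named above as a target of the receptor but listed with the clock outputs, was called higher as well. Fkbp5, a co-chaperone that restrains the glucocorticoid receptor and is induced by it, had 8.59, 9.05 and 9.30 in SD 12 h animals and 7.76, 8.36 and 8.80 in SD 9 h animals, which overlapped. The difference was 0.69 ± 0.148 (adjusted p = 0.00819), and the adjusted p exceeded 1% in 13 of the 17 fits that left out 1 array, with 0.0298 as the highest. Fam107a, an actin-binding protein induced by glucocorticoids, had 8.07, 8.33 and 8.44 in SD 12 h animals and 6.88, 7.44 and 8.00 in SD 9 h animals, with no overlap (0.82 ± 0.153, adjusted p = 0.00117). In sleeping animals Fkbp5 differed by 1.62 and Fam107a by 1.42 over the same hours. Of 24 listed targets of the receptor, Fkbp5 and Fam107a were the 2 calls in deprived animals, with 0 lower, and 22 lay above 0 with a median of 0.204 (14 of 24 within run 2). In sleeping animals the list had a median of 0.587 and 12 calls, all higher (1.08% of all named genes were called higher there). Zbtb16, a zinc finger factor, differed by 0.38 ± 0.12 in deprived animals (adjusted p = 0.15) and by 0.84 in sleeping animals. Map3k6, a stress kinase, differed by 0.35 ± 0.111 (adjusted p = 0.142) and by 1.03.

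Of the 26 immediate early genes, 3 were called higher in SD 12 h animals, beside 0.213% of all named genes. Fosb, a partner of Jun in the AP-1 transcription factor, had 4.81, 5.11 and 5.50 in SD 12 h animals and 4.43, 4.65 and 4.76 in SD 9 h animals, without overlap (0.51 ± 0.0845, adjusted p = 2.17e-04). Fos, the classical marker of recent stimulation, had 4.48, 4.99 and 5.44 in SD 12 h animals, against 4.09, 4.23 and 4.79 in SD 9 h animals. These are dim values: the group means were 4.93 and 4.32, beside a 40th percentile of 4.6 for the mean intensity of all probe sets. Of the 8 SD 12 h animals, 5 lay above the highest SD 9 h animal, and the difference was 0.61 ± 0.132 (adjusted p = 0.00927). The adjusted p exceeded 1% in 13 of the 17 fits that left out 1 array, with 0.0412 as the highest. Btg2, an antiproliferative immediate early gene, had 8.10, 8.42 and 8.59 in SD 12 h animals and 7.74, 7.96 and 8.25 in SD 9 h animals (0.41 ± 0.0829, adjusted p = 0.0036). Its difference was 0.58 in run 1 and 0.17 in run 2.

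No listed immediate early gene was called lower. Every one of the 26 had a difference above 0, with a median of 0.168 (26 in run 1, 20 in run 2, 25 with arrays centred), while 55.3% of all named genes lay above 0. Members of a list were measured in the same animals, so they are not separate replicates. In sleeping animals 16 of the 26 lay above 0, the median was 0.073, and Fos, Fosb and Btg2 differed by -0.00, 0.02 and 0.16, none past 1%. The deprived change exceeded the sleeping change by 0.49 for Fosb (adjusted p = 0.0687) and 0.61 for Fos (adjusted p = 0.207), so that neither difference of changes passed. Nr4a1, an orphan nuclear receptor, had the largest difference of the list, 0.95 ± 0.306, but spread widely and did not pass (adjusted p = 0.159). Fosl2 and Ccn2 passed 5% only (0.35, adjusted p = 0.0342, and 0.37, adjusted p = 0.0403). Btg2 was the single gene among those called whose promoter held the cAMP response element TGACGTCA (its own reverse complement). That was 1 of 29 genes called higher, or 3.45%, the same share as among 9830 genes at or above the 40th percentile of intensity (3.45%). The element stood in the promoters of 2.03% of all genes and of 3 of 20 immediate early genes. The stretch is chr1:134079106-134079405 (-), with the element in capitals.
Btg2: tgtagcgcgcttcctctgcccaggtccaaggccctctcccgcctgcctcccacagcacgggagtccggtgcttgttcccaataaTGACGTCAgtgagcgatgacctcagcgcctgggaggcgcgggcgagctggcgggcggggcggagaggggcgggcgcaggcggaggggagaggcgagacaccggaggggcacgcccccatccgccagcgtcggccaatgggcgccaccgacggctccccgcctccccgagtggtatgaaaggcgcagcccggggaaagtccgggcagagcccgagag

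**Figure D2:**
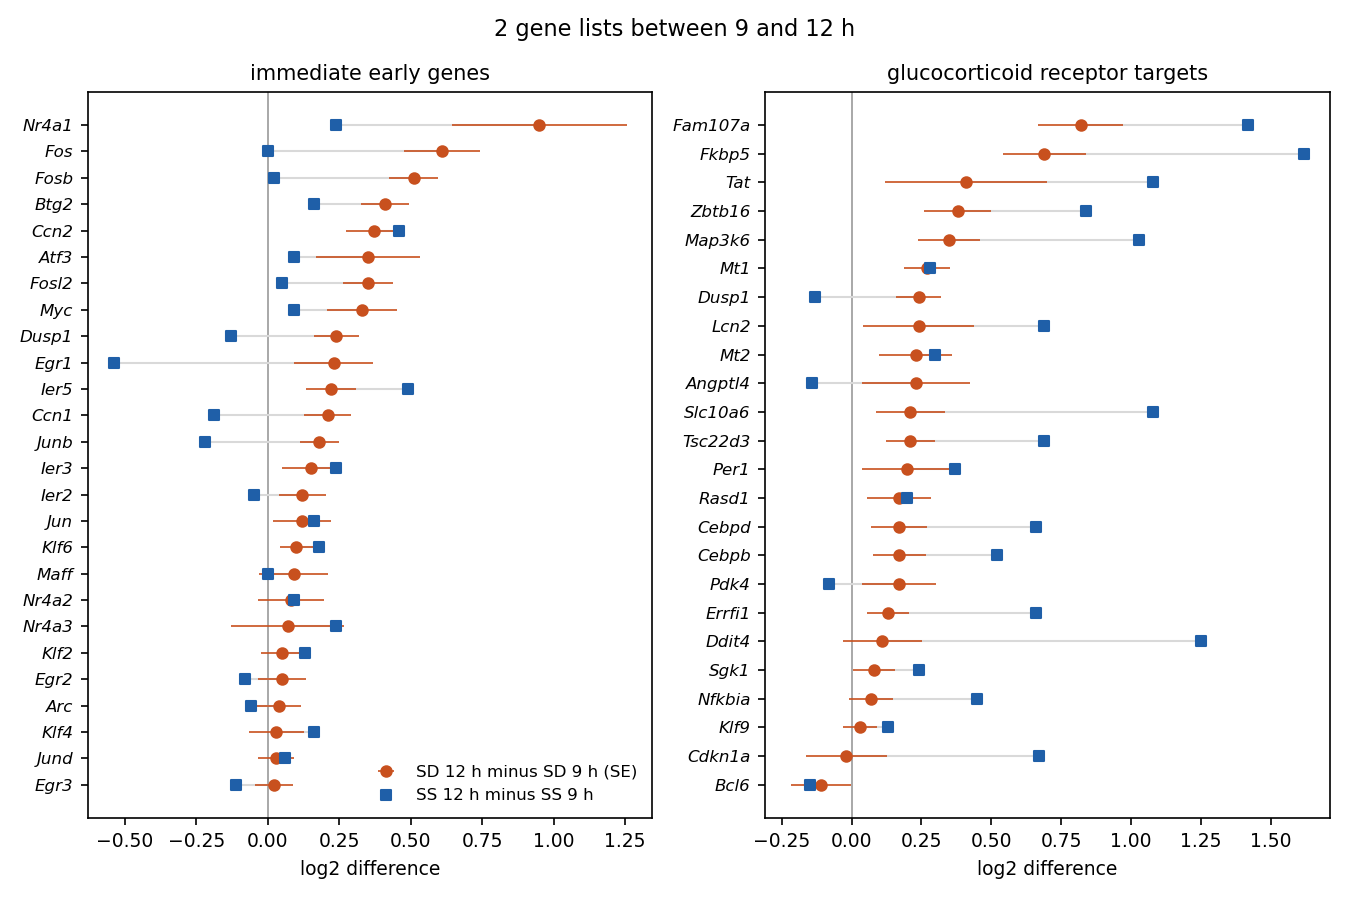
Log2 difference between 12 and 9 h for each measured member of the immediate early genes (left panel) and the glucocorticoid receptor targets (right panel). Orange circles are deprived animals (SD 12 h minus SD 9 h, with SE from limma) and blue squares sleeping animals (SS 12 h minus SS 9 h). All 26 immediate early genes lie above 0 in deprived animals, and the receptor targets have medians of 0.204 in deprived and 0.587 in sleeping animals.

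Genes of insulin signalling and of the FoxO pathway, which governs protein breakdown and fuel use in muscle, were also among those called. They were placed together, with Trp53inp1 and Hdac4, after their values were seen. Irs2, an adaptor that carries the signal of the insulin receptor, had 6.61, 6.90 and 7.30 in SD 12 h animals and 6.25, 6.46 and 6.61 in SD 9 h animals. The groups met at 6.61 on the rounded scale without overlapping, and the difference was 0.47 ± 0.083 (adjusted p = 5.43e-04). Foxo3, the transcription factor that insulin signalling keeps out of the nucleus, had 9.03, 9.23 and 9.30 in SD 12 h animals and 8.61, 8.82 and 8.98 in SD 9 h animals (0.37 ± 0.0699, adjusted p = 0.00117). These were the 2 calls among 24 genes of insulin and mTOR signalling, whose median was 0.0413, while 0.34% of all named genes were called. Sesn1, an inhibitor of mTORC1 and a FoxO target, passed 5% only (0.26 ± 0.0616, adjusted p = 0.0247). Foxo1 and Sesn3 of the same list did not pass (0.03 ± 0.0548, adjusted p = 0.907, and 0.05 ± 0.0516, adjusted p = 0.773). Fbxo32 (atrogin-1), the ubiquitin ligase of muscle wasting and itself a FoxO target, was the 1 call among 30 ubiquitin ligases and atrogenes (0.33 ± 0.0689, adjusted p = 0.00425), and its partner Trim63 did not pass (0.17 ± 0.0681, adjusted p = 0.296). Trp53inp1, which promotes autophagy, was higher without overlap (0.38 ± 0.0759, adjusted p = 0.00287). In sleeping animals Irs2 differed by 0.19 and Fbxo32 by 0.11, neither past 1%, while Foxo3 differed by 0.44 and Trp53inp1 by 0.46, both past it. For none of the 4 did the change differ between states at 1%. Hdac4, a class II histone deacetylase that represses MEF2 in cardiac muscle, had 8.17, 8.29 and 8.49 in SD 12 h animals and 7.82, 7.97 and 8.11 in SD 9 h animals (0.33 ± 0.0609, adjusted p = 8.56e-04). No animal overlapped.

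Angptl7, a secreted angiopoietin-like protein, had the smallest p of the genes called higher. It had 8.60, 8.70 and 9.04 in SD 12 h animals and 7.16, 7.73 and 8.12 in SD 9 h animals, far apart, and was 2.0-fold higher (1.0 ± 0.129 on the log2 scale, adjusted p = 4.8e-07). Its mean was 7.23 at baseline and 6.76, 7.15, 7.76 and 8.76 after 3, 6, 9 and 12 h of deprivation, against 6.6, 6.72, 7.49 and 8.64 in sleeping animals. Lonrf3, which encodes a RING finger protein with a LON domain, had 5.04, 5.40 and 5.56 in SD 12 h animals and 4.43, 4.59 and 4.82 in SD 9 h animals (0.69 ± 0.0941, adjusted p = 1.97e-06), and its relative Lonrf1 rose as well (0.58 ± 0.0943, adjusted p = 1.33e-04). Neither overlapped. In sleeping animals these differed by 0.30 and 0.36, neither past 1%.

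Other genes were called higher as well. Gsta3, a glutathione transferase, differed by 0.56 ± 0.115 (adjusted p = 0.0044), Fmo2, a flavin-containing monooxygenase, by 0.55 ± 0.106 (adjusted p = 0.0016), Aldh3a1, an aldehyde dehydrogenase, by 0.43 ± 0.0816 (adjusted p = 0.0015) and Osgin1, an oxidative stress-induced growth inhibitor, by 0.57 ± 0.0941 (adjusted p = 2.05e-04). They were placed together after their values were seen. Among the 21 listed NRF2 targets and antioxidant genes Gsta3 was the 1 call, and the list median was 0.034. Hmox1 (haem oxygenase 1) differed by 0.58 ± 0.141 and passed 5% only (adjusted p = 0.0319). Hif3a, a hypoxia-inducible factor subunit, was higher without overlap (0.50 ± 0.0871, adjusted p = 3.52e-04). Slc46a3, a lysosomal transporter (0.53 ± 0.0743, adjusted p = 3.6e-06), Rasgef1b, an exchange factor for Ras-family GTPases (0.59 ± 0.111, adjusted p = 0.00118), and Bmp6, a ligand of the BMP pathway (0.35 ± 0.0741, adjusted p = 0.00646), did not overlap either. These genes were higher at 12 h in sleeping animals too. Fmo2 ran from 9.35 to 10.02 in SS 12 h and from 8.41 to 9.08 in SS 9 h animals. Gsta3 ran from 7.81 to 8.29 and from 6.97 to 7.43. Hif3a and Slc46a3 did not overlap there either, while Aldh3a1, Osgin1, Rasgef1b and Bmp6 had higher means with overlap.

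Cyp4a31, which had the largest difference among the 71 called probe sets, moved with kidney markers. It belongs to the fatty acid hydroxylases of the cytochrome P450 4A family, which are abundant in mouse kidney. Cyp4a31 had 4.07, 4.29 and 6.86 in SD 12 h animals and 2.94, 3.38 and 3.55 in SD 9 h animals (1.44 ± 0.31, adjusted p = 0.0079). The mean level of 18 kidney tubule markers, a list added after the data were seen, ran from 4.69 to 6.41 (median 4.93) in SD 12 h animals and from 4.25 to 4.77 (median 4.32) in SD 9 h animals. Of the 8 SD 12 h animals, 6 lay above every SD 9 h animal, and all 18 markers lay above 0 with a median of 0.403. None passed 1% in limma (15 at an unadjusted p under 0.05, beside 3849 of all 35556 probe sets). Kap, the kidney androgen-regulated protein, passed 5% (2.81 ± 0.641, adjusted p = 0.0152). The same marker mean reached 6.57 in SS 12 h and 6.56 in CTL 0 h animals, and it was 4.25 to 4.76 in SS 9 h animals. SD 12 h replicate 1 held the highest kidney level and the highest Cyp4a31. Without that array Cyp4a31 differed by 1.14 ± 0.294 (adjusted p = 0.0447) and the kidney median was 0.271. The part of kidney RNA in the difference of Cyp4a31 was not tested.

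**Figure D3:**
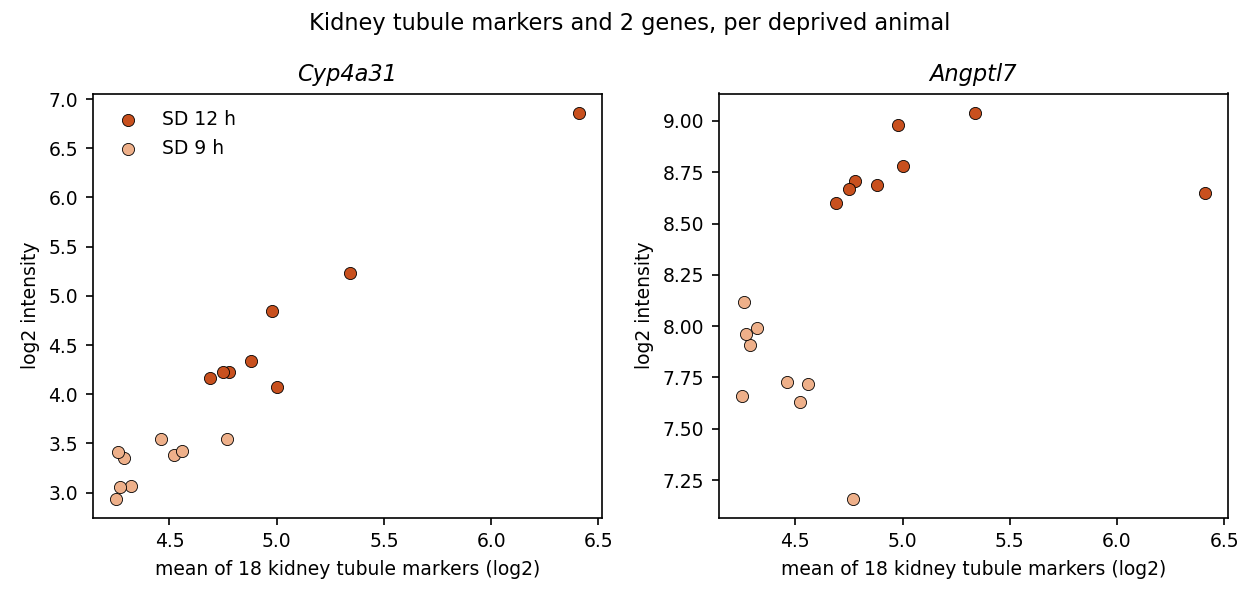
Log2 intensity of Cyp4a31 (left panel) and Angptl7 (right panel) in each SD 12 h (dark points) and SD 9 h animal (light points), against the mean log2 intensity of 18 kidney tubule markers in the same animal. The animal with the highest Cyp4a31 (6.86) has the highest kidney mean (6.41), and within SD 12 h animals Angptl7 stays between 8.60 and 9.04.

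Among the genes that fell, several are known from blood vessels, and these too were placed together after their values were seen. Kdr, the main VEGF receptor of endothelial cells, had 8.97, 9.10 and 9.34 in SD 12 h animals and 9.34, 9.55 and 9.71 in SD 9 h animals, without overlap beyond the shared rounded value. It fell by 0.40 ± 0.0509 (adjusted p = 2.96e-07). Nrp1, a VEGF co-receptor, had 9.68, 9.83 and 9.93 in SD 12 h animals and 9.99, 10.11 and 10.22 in SD 9 h animals (-0.31 ± 0.0549, adjusted p = 4.34e-04). Itga6, a laminin-binding integrin (-0.34 ± 0.0632, adjusted p = 0.00117), Lama4, a laminin chain of vessel basement membrane (-0.25 ± 0.0506, adjusted p = 0.00284), and Tnfaip2, a TNF-induced gene of endothelial cells (-0.47 ± 0.0667, adjusted p = 5.13e-06), were lower too. The list of 12 endothelial markers did not fall as a whole: Kdr was its 1 call, its median was 0.0207, and its mean level ran from 9.64 to 9.88 in SD 12 h animals and from 9.61 to 9.79 in SD 9 h animals. Flt1, the other VEGF receptor of endothelium, differed by 0.12 ± 0.039 (adjusted p = 0.185) and Cldn5, a tight junction protein, by 0.20 ± 0.0995 (adjusted p = 0.472). In whole hearts fewer cells of a type and less RNA per cell cannot be told apart. In sleeping animals Kdr, Itga6, Lama4 and Tnfaip2 also fell past 1% (-0.38, -0.40, -0.21 and -0.62), and Nrp1 differed by -0.19 (adjusted p = 0.0293).

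While 55.3% of all named genes lay above 0, matrix genes lay mostly below it. Of 18 collagen chains 16 did, with a median of -0.154, and 1 was called, Col6a3 (6.40, 6.60 and 6.82 in SD 12 h animals, 6.79, 6.96 and 7.17 in SD 9 h animals, -0.33 ± 0.0677, adjusted p = 0.0036). Col15a1, of basement membrane, differed by -0.40 ± 0.089 (adjusted p = 0.0104) and Col3a1, of fibrils, by -0.35 ± 0.087 (adjusted p = 0.035), passing 5% only. The list median in sleeping animals was -0.117, and fibroblast markers as a whole had a median of -0.0332 in deprived animals.

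Slc41a3, of a family of magnesium transporters, had the smallest p of all. It had 8.49, 8.76 and 8.93 in SD 12 h animals and 9.27, 9.38 and 9.68 in SD 9 h animals, well apart (-0.69 ± 0.0701, adjusted p = 1.67e-10). Fabp7, the brain-type fatty acid binding protein, had 4.41, 5.11 and 5.66 in SD 12 h animals, overlapping 5.52, 5.76 and 6.32 in SD 9 h animals (-0.76 ± 0.134, adjusted p = 4.68e-04). Colq, the collagen tail that anchors acetylcholinesterase at the synapse, had 5.58, 5.83 and 6.01 in SD 12 h animals and 6.09, 6.44 and 6.74 in SD 9 h animals (-0.59 ± 0.106, adjusted p = 6.89e-04). Slc41a3 and Fabp7 fell in sleeping animals too, by 0.57 and 0.62. All 29 probe sets called lower, among them Colq, had the same sign in sleeping animals. Alas1, the first enzyme of haem synthesis, had 10.55, 10.63 and 10.88 in SD 12 h animals and 10.91, 11.06 and 11.33 in SD 9 h animals. It did not overlap (-0.41 ± 0.0705, adjusted p = 3.52e-04), and in sleeping animals it differed by -0.13 (adjusted p = 0.421). Gja1, the main gap junction protein of ventricular muscle, was lower by a small amount (-0.23 ± 0.0495, adjusted p = 0.00913). Efhd1, a calcium-binding protein of mitochondria (-0.47 ± 0.0877, adjusted p = 9.98e-04), Klhdc8a, a kelch domain protein (-0.46 ± 0.0894, adjusted p = 0.00215), and Efr3b, a plasma membrane scaffold of a lipid kinase (-0.43 ± 0.0755, adjusted p = 4.34e-04), were lower as well.

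Several pathways that the heart depends on showed no call in either direction at 1% in limma. These were glucose transport and glycolysis (21 genes, 5 at an unadjusted p under 0.05, median -0.00484), fatty acid uptake and oxidation (23 genes, 2 of them, -0.00203), the respiratory chain (31 and 2, -0.0229), sarcomere genes (17 and 1, -0.00898), potassium channel subunits (17 and 2, 0.00651), natriuretic peptides and fetal cardiac genes (10 and 0, -0.0287), chemokines and cytokines (23 and 3, 0.0148) and proteasome subunits (30 and 0, -0.00972). Of 33 ER chaperones and genes of the unfolded protein response, 7 lay above 0, the median was -0.0972 and 18 had an unadjusted p under 0.05 (3849 of all 35556 probe sets did). The 1 call was higher in SD 12 h animals, Herpud1, a component of ER-associated degradation (0.30 ± 0.0649, adjusted p = 0.00974). Hspa5 (BiP), the central ER chaperone, differed by -0.24 ± 0.0823 (adjusted p = 0.203). Of 20 cholesterol synthesis and SREBP targets 18 lay below 0, with a median of -0.162, and 0 were called (7 at an unadjusted p under 0.05), while in sleeping animals the median was 0.0293. Adipocyte markers moved beside them, with means of 6.85 to 8.56 in SD 12 h animals and 6.92 to 9.18 in SD 9 h animals and a median of -0.815 in deprived and 0.791 in sleeping animals, with 0 of 8 called (2 at an unadjusted p under 0.05). Their part in the lipid genes was not tested. Lung epithelial markers reached at most 6.06 in SD 12 h animals and 8.41 in SD 9 h replicate 6, with 0 of 9 called (1 at an unadjusted p under 0.05).

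Most probe sets called between 12 and 9 h awake had the same sign between 12 and 9 h of undisturbed sleep, in animals that share no array with the deprived ones. Of the 71 probe sets called in deprived animals, 69 (97.2%) had the same sign in sleeping animals, against 53.2% of all probe sets, and their median size there was 0.33. Both contrasts called 41, all with the same sign, which was 57.7% of the 71 and 8.67% of the 473 called in sleeping animals (1.33% of those tested). Conversely, 418 of the 473 (88.4%) had the same sign in deprived animals, but the median size was 0.14 there and 0.37 in sleeping animals. Of the 71, 7 differed by less than 0.05 in sleeping animals, among them Fos, Fosb, Pnpla7, a lysophospholipase (0.27 ± 0.0475 in deprived and 0.02 in sleeping animals), and Plcb1, a phospholipase C that acts downstream of Gq-coupled receptors (0.26 ± 0.0538 and -0.00).

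**Figure D4:**
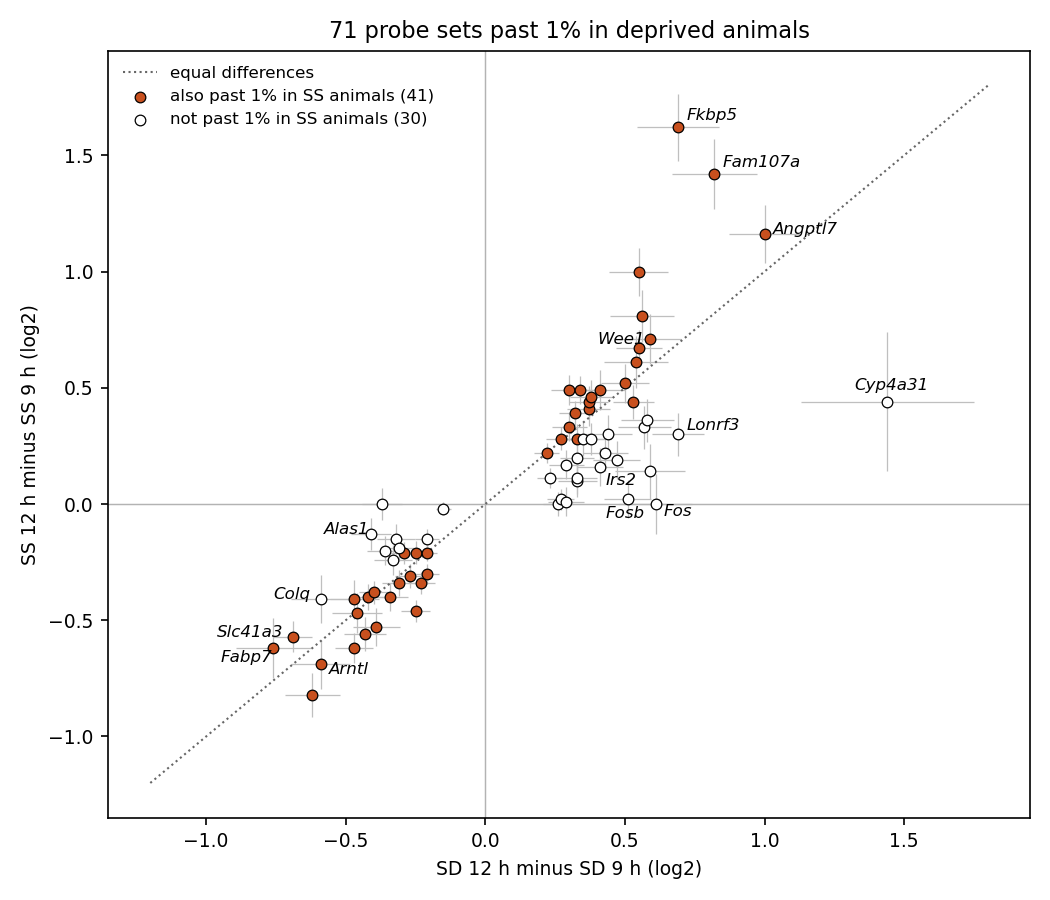
Log2 difference of the 71 probe sets called between SD 12 h and SD 9 h animals (x axis) against the difference between SS 12 h and SS 9 h animals (y axis), with SE. Filled points were called in both (41), open points did not pass 1% in sleeping animals (30), and the dotted line marks equal differences. Fkbp5 and Fam107a lie above the line, and Fos, Fosb and Cyp4a31 lie near or toward the x axis.

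The difference between the changes of the 2 states was then tested directly. It passed 1% for 8 probe sets (0.0225% of those tested), 4 with the deprived change above the sleeping change and 4 below, and none was among the 71. At 5% there were 30, and 1 of the 71 was among them, Fkbp5 (-0.93, adjusted p = 0.0342). All 7 named genes changed past 1% in sleeping animals, and none of them passed 1% in deprived animals. In simulated arrays the test of the difference of changes recovered 17.9% of log2 differences of 0.3 and 59.7% of those of 0.5. A gene that did not pass it therefore need not have changed equally in both states.

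Ddit4, an inhibitor of mTORC1 and a member of the list of glucocorticoid receptor targets, had 8.84, 9.20 and 9.39 in SD 12 h animals and 8.85, 8.99 and 9.42 in SD 9 h animals, fully overlapping. In SS 12 h animals it had 9.13, 9.29 and 9.61, against 7.66, 8.10 and 8.55 in SS 9 h animals. The change was 0.11 in deprived and 1.25 in sleeping animals, and it differed by -1.14 ± 0.196 (adjusted p = 0.0019; -0.84 in run 1, -1.56 in run 2). Arrdc2, an arrestin-domain gene, changed by 0.27 in deprived and 1.47 in sleeping animals (difference -1.19 ± 0.232, adjusted p = 0.00933). Its adjusted p exceeded 1% in 10 of the 17 fits that left out 1 deprived array, with 0.0297 as the highest. Chka, choline kinase alpha, changed by 0.07 and 0.54 (difference -0.47 ± 0.0815, adjusted p = 0.0019). For Ddit4 and Chka every SD 9 h animal already lay above every SS 9 h animal.

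Klf10, a TGF-beta-inducible transcription factor also tied to the clock, had changes of opposite sign in the 2 states. It had 7.54, 7.84 and 8.16 in SD 12 h animals and 7.20, 7.51 and 7.67 in SD 9 h animals, against 6.62, 7.02 and 7.23 in SS 12 h animals and 7.33, 7.49 and 7.73 in SS 9 h animals. All 8 SD 12 h animals lay above all 9 SS 12 h animals, while at 9 h the states overlapped. Its change was 0.40 ± 0.112 in deprived animals, which did not pass by itself (adjusted p = 0.0788), and -0.54 ± 0.109 in sleeping animals (adjusted p = 6.42e-04), a difference of 0.94 ± 0.156 (adjusted p = 0.0019; 0.85 in run 1, 1.09 in run 2). Bcl6b, a transcriptional repressor expressed in endothelium, changed by -0.06 in deprived and -0.84 in sleeping animals (difference 0.78 ± 0.136, adjusted p = 0.0019). Rrad, a GTPase that inhibits L-type calcium channels, changed by -0.04 and -0.80 (0.76 ± 0.144, adjusted p = 0.00725), and Plk2, a polo-like kinase, by 0.04 and -0.47 (0.51 ± 0.0973, adjusted p = 0.0075). The adjusted p of Rrad exceeded 1% in 7 of the 17 fits that left out 1 deprived array (highest 0.0248). That of Plk2 did so in 8 (highest 0.0297), while Ddit4, Chka, Klf10 and Bcl6b passed in all 17 such fits. Arrays of sleeping animals, which also enter these differences, were not left out in turn.

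**Figure D5:**
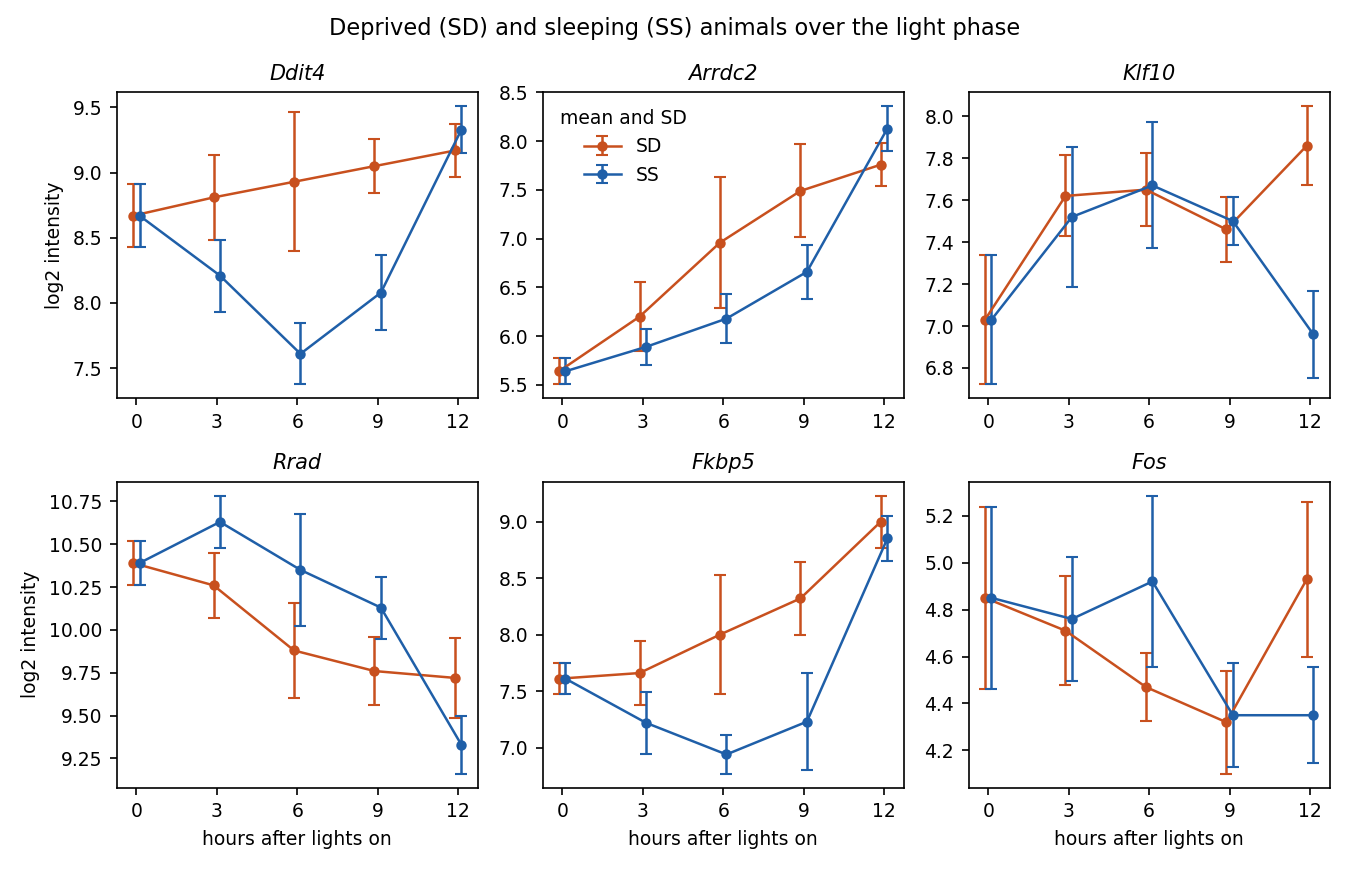
Mean log2 intensity with standard deviation over hours after lights on, for deprived (SD, orange) and sleeping (SS, blue) animals, with the shared baseline at 0 h. Ddit4 and Arrdc2 differ by 0.11 and 0.27 between 12 and 9 h in deprived animals and by 1.25 and 1.47 in sleeping animals, Klf10 differs by 0.40 in deprived and -0.54 in sleeping animals, and Fos differs by 0.61 in deprived and -0.00 in sleeping animals.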

How the data were processed

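Heart RNA of each animal was extracted with Trizol and RNeasy and hybridised to an Affymetrix Mouse Gene 1.0 ST array. The authors normalised all heart arrays together by RMA in R, and the deposited table holds log2 values without their decimal point. The point was restored after 2 digits where a value began with 10 to 13 and after 1 digit otherwise, giving 1.38 to 13.85, and 1 of 2844480 values could be read both ways. The arrays are of 1 colour, their number limits the precision, and no scanner file was used.

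Group means of all 80 arrays were fitted with limma 3.58.1 (R 4.3.3, lmFit and eBayes), and SD 12 h minus SD 9 h, SS 12 h minus SS 9 h and the difference of these were taken as contrasts, with Benjamini-Hochberg adjustment over 35556 probe sets and a threshold of 1%. The p-values rest on the spread between animals within all groups of the 80 arrays, moderated across probe sets, and not on the 17 deprived animals alone. No filter was applied. Gene names came from the platform annotation (21218 probe sets with 1 symbol, 1881 with several, 12457 with none; 18820 symbols). For lists, the probe set with the highest mean stood for a gene, and each list is described by counts and its median. Carmil1, Dnm3 and Znfx1 each have a second probe set that was not called.

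Exact permutation over animals, also run for single genes, gives close to its smallest p wherever groups do not overlap and is not printed. Promoters came from the RefSeq table of GRCm38.p6. The genes named were the 16 highest and 16 lowest past 1%, the interaction genes past 1%, the clock and cold-inducible lists, and up to 4 members of each other list, and others were named for their function or promoter motif after their values were seen. Predicted gene models were left out. The members and lists were chosen with earlier results of these data known. The scripts were tested on simulated data. Alternatives in filter, scaling, arrays fitted, run, variance estimate and probe set choice were run as well.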

Additional observations from a re-analysis of the deposited data

Results flagged for a closer look

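Of 140 sets of values within a group, 9 held an animal that stood apart by Dixon's criterion (6.43%, where chance gives about 5%). In SD 12 h animals these were 7.44 for Efhd1 in replicate 1 (others 6.69 to 6.97), 6.86 for Cyp4a31 in replicate 1 (others 4.07 to 5.23), 6.52 for Plcb1 in replicate 7 (others 6.29 to 6.40) and 4 values of replicate 3, namely 7.95 for Lrrfip1 (others 8.18 to 8.31), 5.84 for Klhdc8a (others 6.11 to 6.31), 6.12 for Hhat (others 6.47 to 6.69) and 10.88 for Gja1 (others 11.03 to 11.15). In SD 9 h animals they were 9.78 for Fbxo32 in replicate 1 (others 10.07 to 10.26) and 7.16 for Angptl7 in replicate 7 (others 7.63 to 8.12). SD 12 h replicate 3 had the lowest mean correlation with the other arrays of its group, and the median standard deviation of all probe sets was 0.151 in SD 12 h and 0.141 in SD 9 h animals, or 0.135 in SD 12 h animals without it.

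The change from 9 to 12 h differed between deprived and sleeping animals in limma's interaction test for 7 named genes. The deprived change minus the sleeping change was -1.14 for Ddit4, -1.19 for Arrdc2, -0.47 for Chka, 0.94 for Klf10, 0.78 for Bcl6b, 0.76 for Rrad and 0.51 for Plk2 on the log2 scale. Each kept its sign in run 1 and in run 2, but the genes were chosen on the arrays of both runs together.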

How the results depend on the processing

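The 71 calls between SD 12 h and SD 9 h animals in limma became 27 when the 17 deprived arrays were fitted alone, 37 within run 1 (5 higher, 32 lower), 0 within run 2 (3577 at an unadjusted p under 0.05) and 188 at a rate of 5%, and 61 to 87 under filtering of dim probe sets, centring, renewed quantile normalisation, run as a block or the 35 arrays of 9 and 12 h, and 70 to 96 under other variance estimates, array weights or 1 probe set per symbol. Without probe sets on both sides of 10 the count was 55. Leaving out 1 deprived array at a time gave 49 to 75. Leaving out SD 12 h replicates 1 and 3 and SD 9 h replicate 6 together, chosen after seeing the data, gave 54 (47 shared). Of 63 named genes called (without a predicted model), 34 passed 1% whichever array was left out, and no sign reversed. The 8 calls of the interaction became 13 without dim probe sets, 17 with 1 probe set per symbol, 2 within run 1 and 30 within run 2 (26 higher, 4 lower). They became 30 at 5% and 4 to 15 with 1 deprived array left out, and no sleeping array was left out in turn. The 473 calls in sleeping animals became 41 within run 1, 162 within run 2 and 888 at 5%. Fits within a run hold fewer arrays, and further causes were not tested. Lung epithelial markers had a median of 0.522 in run 1 and -1.46 in run 2. No paired analysis was possible because the numbers given to replicates name animals only and the labels pair none. Of the 71, 2 had a mean intensity below the 40th percentile.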

Other observations

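Some genes passed 5% but not 1% in the comparison of the deprived with the sleeping change, and they are given as values. In limma the deprived change minus the sleeping change was above 0 for Cldn5, the endothelial tight junction protein (0.61, adjusted p = 0.0436), which differed by 0.20 in deprived and -0.42 in sleeping animals. It was below 0 for Map3k6 (-0.68, adjusted p = 0.0436) and Fkbp5 (-0.93, adjusted p = 0.0342), both in the list of glucocorticoid receptor targets. The median of that list was 0.204 in deprived and 0.587 in sleeping animals. In the contrast of deprived animals alone, Tfrc, the transferrin receptor, passed 5% only (-0.74 ± 0.172, adjusted p = 0.0179). Its mean was 7.30 in SD 12 h and 8.05 in SD 9 h animals. It was lower at 12 h in sleeping animals too, with 7.7, 8.29 and 8.95 (lowest, median, highest) in SS 12 h and 8.18, 8.74 and 9.15 in SS 9 h animals. B and T lymphocyte markers had a median of -0.141 in deprived animals, with 0 of 10 called (0 at an unadjusted p under 0.05), and of 0.441 in sleeping animals.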
